A study of Mus musculus with 11 samples.

Results

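The 10 serotonin receptor genes described here are Htr1a, Htr1b, Htr1d, Htr1f, Htr2a, Htr2b, Htr2c, Htr3a, Htr4 and Htr7, taken by name from the 22380 protein-coding genes of the mouse annotation for the mm9 build. Each gene body was extended by 20 kb on both sides, and the ATAC-seq peak rows that overlap this window were assigned to the gene. Serotonin (5-HT) acts on a family of receptors that, apart from the ion channel formed by Htr3a, are coupled to G proteins. Htr1a, Htr1b and Htr1d are inhibitory receptors that serotonergic neurons also carry themselves, on the soma and dendrites or on axon terminals, where they act as autoreceptors and restrain firing or release. Other members are receptors of target cells, among them dopaminergic (DA) neurons of the midbrain, which receive serotonergic fibres.

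ATAC-seq, which marks accessible chromatin by transposase insertion, was performed on DA and 5-HT neurons sorted from mouse embryos at embryonic day 14.5. DA neurons (3 libraries) came from the ventral mesencephalon of TH-GFP embryos, with GFP driven by a Th promoter on a C57BL/6J background. 5-HT neurons (2 libraries) came from hindbrain of Mash1-CRE x ROSA YFP embryos, and fathers of both lines had been mated with Swiss wild-type females. Each library is a separate sort of tissue pooled from several embryos, so the spread between libraries is that between pools. Sorting rested on the reporter alone: GFP follows the transgenic promoter, and YFP marks cells with a history of Mash1, a proneural gene that progenitors of other neurons use as well. Fewer cells were sorted for each 5-HT library than for any DA library. Region of origin, reporter line, number of sorted cells and cell type changed together and cannot be told apart.

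The files list the same 131942 rows for every library with a score, whose scale is not named; a score of 0 means no peak, and a row is called open in a library when its score is above 0. DA replicates 1, 2 and 3 had 52861, 93055 and 94351 open rows, and 5-HT replicates 1 and 2 had 38772 and 22879. Read depth is unknown. Because the number of peaks differed this much, each score is also given as its percentile among the peaks of its own library, which rises with the length of the list for a peak of the same rank, and counts are given again with every library limited to its 22879 highest peaks, called the matched number. Rows were divided into those at a promoter of the receptor gene (from 1 kb before a TSS to 100 bp after it), those at a promoter of another gene and the distal rest.

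The sorted populations were compared with their markers first. The Th promoter was open in all 3 DA libraries, with scores of 9.91, 10.6 and 8.45, and in neither 5-HT library. Of 11 DA marker promoters, 11 were open in each DA library and 7 in each 5-HT library. Over all protein-coding genes, 59.7%, 63.6% and 61.9% of promoters were open in the DA libraries and 58.2% and 49.5% in the 5-HT libraries. Of 10 5-HT marker promoters, 8, 9 and 8 were open in the DA libraries, against 7 and 4 in the 5-HT libraries. The promoter of Slc6a4, the serotonin transporter, was open in all 3 DA libraries (4.80, 6.56 and 3.76) and in neither 5-HT library. Fev, a determinant of serotonergic identity, had an open promoter in 5-HT replicate 1 alone (3.88). Other 5-HT markers were open in 5-HT neurons: Tph2, Ddc and Gata3 had an open promoter in both 5-HT libraries and in all DA libraries. Gata3 scored 6.98, 4.52 and 4.65 in the DA libraries and 5.17 and 7.51 in the 5-HT libraries. Nkx2-2 scored 3.51, 3.80 and 3.67 in the DA libraries and 5.21 and 0 in the 5-HT libraries. Gata2 scored 0, 3.11 and 0 in the DA libraries and 4.20 and 0 in the 5-HT libraries. Lmx1b scored 6.00, 7.62 and 6.01 in the DA libraries and 4.44 and 0 in the 5-HT libraries. The promoters of the DA markers Lmx1a (5.00, 5.62 and 4.09) and Aldh1a1 (4.32, 4.86 and 5.90) were, like that of Th, open in the DA libraries alone. The scores of Lmx1a and Aldh1a1 lay below the lowest score kept at the matched number in each DA library (5.54, 6.70 and 5.97). Of the 11 DA marker promoters, 3 were thus open in the DA libraries alone and 6 in all 5 libraries. Of the 10 5-HT marker promoters, 2 (Slc6a4 and Maob) were open in the DA libraries alone, 3 in all 5 and 0 in the 5-HT libraries alone. Both lists were therefore mixed, and the share of protein-coding genes with a promoter open in the DA libraries alone was not counted.

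Some promoters of markers of other cells were open in both groups. All 3 GABA neuron promoters (Gad1, Gad2, Slc32a1) were open in every DA library and in 5-HT replicate 1, and 2 were open in 5-HT replicate 2. Of 2 glutamate neuron promoters, that of Slc17a6 was open in each DA library and in 5-HT replicate 1, and that of Slc17a7 in no library. Of 5 radial glia and astrocyte promoters, 4, 5 and 5 were open in the DA libraries and 4 and 2 in the 5-HT libraries. Choroid plexus promoters were open at 3, 3 and 4 of 4 genes in the DA libraries and at 2 and 1 in the 5-HT libraries. Vascular promoters were open at 1, 2 and 2 of 4 genes and at 1 and 0, with no peak at Pecam1 and Cdh5 in any of the 5 libraries. Of 4 microglia promoters only that of P2ry12 was open, in DA replicate 1 and 5-HT replicate 1. These counts stand beside the shares of all promoters given above. An open promoter does not measure transcription, and the part of such cells in the receptor rows was not tested.

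The windows of the 10 genes held 46 rows, of which 9 lay at a receptor promoter, 1 at the promoter of another gene and 36 were distal. DA replicates 1, 2 and 3 had 17, 34 and 34 of them open, and 5-HT replicates 1 and 2 had 17 and 12. These are 37.0%, 73.9%, 73.9%, 37.0% and 26.1% of the receptor rows, against 40.1%, 70.5%, 71.5%, 29.4% and 17.3% of all rows, so the share of receptor rows was below that of all rows in DA replicate 1 and above it in the other 4 libraries. The mean was 28.3 ± 9.81 (SD, n = 3) in DA and 14.5 ± 3.54 (SD, n = 2) in 5-HT neurons, a difference of 13.8 rows that overlapped between groups, since DA replicate 1 and 5-HT replicate 1 had the same number (two-sided exact permutation test over libraries, p = 0.3, Benjamini-Hochberg adjusted p = 0.3 over 5 values). With 3 libraries against 2, the smallest p this test can give is 0.1.

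The direction turned when peak numbers were matched. The receptor windows then held 4, 4 and 6 open rows in the DA libraries and 10 and 12 in the 5-HT libraries, a mean of 4.67 ± 1.15 (SD, n = 3) against 11.0 ± 1.41 (SD, n = 2). These are 8.70%, 8.70%, 13.0%, 21.7% and 26.1% of the receptor rows, against 17.3% of all rows in every library by construction. The groups no longer overlapped, and the higher count was in 5-HT neurons (exact permutation p = 0.1, adjusted p = 0.125). Per 10000 peaks of the library, the windows held 3.22, 3.65 and 3.60 open rows in DA and 4.38 and 5.24 in 5-HT neurons. The higher count in DA neurons was thus present in the raw counts and not at the matched number or per 10000 peaks.

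The change of direction was clearest at promoters. At the 9 promoter rows, 7, 9 and 8 were open in the DA libraries and 7 and 6 in the 5-HT libraries (difference 1.50 rows; exact permutation p = 0.3). In the same order of libraries, 77.8%, 100%, 88.9%, 77.8% and 66.7% of them were open, against 80.9%, 93.5%, 88.7%, 76.8% and 61.6% of all promoter rows. At the matched number, 2 were open in every DA library and 7 and 6 in the 5-HT libraries (exact permutation p = 0.1, adjusted p = 0.125). Over all 17884 promoter rows, the share open at the matched number was 55.5%, 55.7% and 53.6% in DA and 61.0% and 61.6% in 5-HT libraries. Promoter rows as a whole thus differed in the same direction, by a smaller share than the receptor promoters (2 of 9 against 7 and 6 of 9). The 36 distal rows gave 9, 24 and 25 open rows in DA and 9 and 6 in 5-HT libraries (difference 11.8 rows; exact permutation p = 0.3), and at the matched number 2, 2 and 4 against 3 and 6, where the groups overlapped (exact permutation p = 0.3, adjusted p = 0.3). Per 10000 peaks the distal difference was -0.161 (exact permutation p = 0.9). At the matched number, 5.56%, 5.56%, 11.1%, 8.33% and 16.7% of the distal receptor rows were open, against 11.4%, 11.3%, 11.7%, 10.5% and 10.4% of all rows at no promoter. The raw distal counts are 25.0%, 66.7%, 69.4%, 25.0% and 16.7% of the rows, against 33.7%, 66.9%, 68.8%, 22.0% and 10.4% of all rows at no promoter.

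Receptor promoters were moderate in score. The median percentile of open receptor promoter rows was 43.7, 66.7 and 69.7 in the DA libraries and 57.7 and 25.7 in the 5-HT libraries. For all promoter rows these medians were 73.8, 82.4, 82.4, 69.3 and 65.6. The receptor median was the lower one in each of the 5 libraries.

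**Figure D1:**
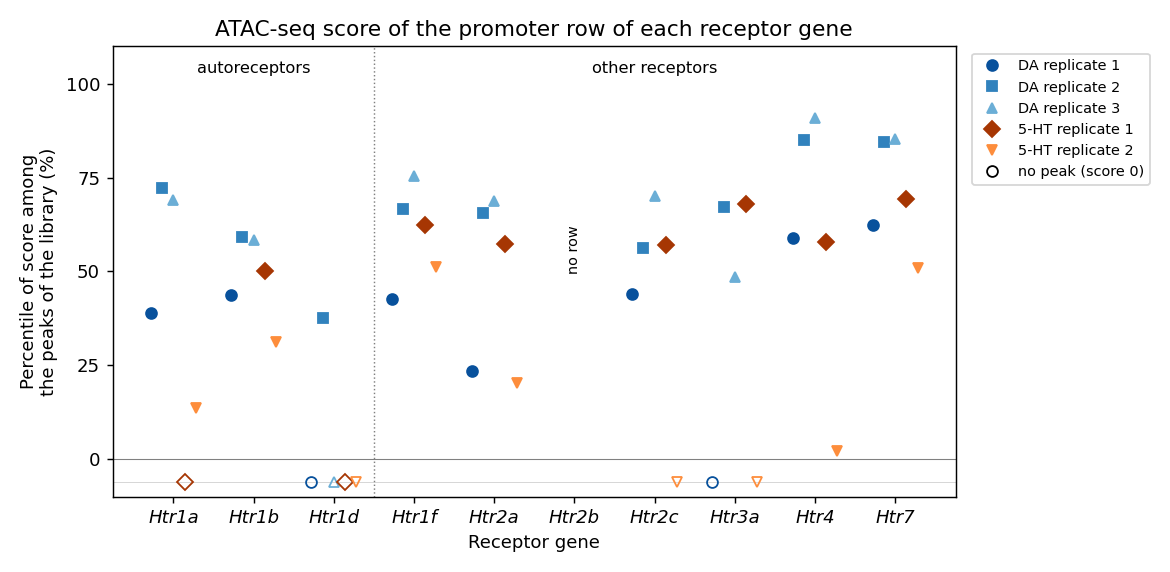
Percentile of the score of each receptor gene's promoter row (vertical axis, percent) in the 5 libraries, with autoreceptor genes left of the dotted line and a library without a peak drawn as an open symbol under 0. Htr4 and Htr7 reached the highest percentiles in DA replicates 2 and 3, Htr1d was open in DA replicate 2 alone, and Htr2b had no row.

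By presence, 8 of the 46 rows were open in all 5 libraries (17.4%, against 12.8% of all rows), 3 were open in all 3 DA and no 5-HT libraries, called DA-only (6.52%, against 13.4% of all rows), and 0 were 5-HT-only (against 0.389% of all rows). The 8 shared rows were 5 of 9 promoter rows (Htr1b, Htr1f, Htr2a, Htr4, Htr7; 58.8% of all promoter rows were shared) and 3 of 36 distal rows (Htr1a, Htr1b, Htr2a; 5.55% of all rows at no promoter). The DA-only rows lay at Htr2c, Htr3a and Htr4, and all 3 were distal. They made up 8.33% of the 36 distal receptor rows, against 14.6% of all rows at no promoter. Of the 9 receptor promoter rows 0 were DA-only, against 5.51% of all promoter rows. At the matched number 4 rows were open in all 5 libraries (8.70%, against 8.34% of all rows) and the DA-only rows numbered 0 (2.14% of all rows). The promoters of Htr1b, Htr1f and Htr2a, 3 rows, were among the top 22879 peaks in both 5-HT and no DA libraries (1.79% of all rows and 3.55% of promoter rows). All 3 had a peak in every DA library, which the limit left out. The limit removed no peak from 5-HT replicate 2, so this class depends on the unequal lengths of the lists. Single libraries moved these counts: without DA replicate 1 or without 5-HT replicate 1 the DA-only rows numbered 8, without 5-HT replicate 2 the rows open in all remaining libraries numbered 13, and without either 5-HT library 1 row was 5-HT-only. All rows were not counted again without these libraries, so the shares of all rows above do not apply to these counts.

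A receptor promoter was open in all 3 DA libraries for 7 of 10 genes, against 58.9% of protein-coding genes, and in both 5-HT libraries for 5 of 10, against 48.7%. At the matched number these counts were 2 and 5, so their order turned, and the shares of protein-coding genes were not counted there. Htr2b alone had no open promoter in any library, which held for 34.9% of protein-coding genes. A further 19 rows were open in 1 library only (41.3%, against 44.5% of all rows), 10 of them in DA replicate 2 and 7 in DA replicate 3.

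The autoreceptor genes held 10 rows and the other receptor genes 36. Autoreceptor windows had 5, 10 and 7 open rows in the DA libraries and 4 and 4 in the 5-HT libraries, a mean of 7.33 ± 2.52 (SD, n = 3) against 4.0 with no spread (exact permutation p = 0.2, adjusted p = 0.3). At the matched number these means were 1.0 and 3.0 (exact permutation p = 0.1). The other genes had 12, 24 and 27 open rows in DA and 13 and 8 in 5-HT libraries (exact permutation p = 0.3), and matched means of 3.67 and 8.0 (exact permutation p = 0.1). The raw shares open were 50%, 100%, 70.0%, 40.0% and 40.0% for autoreceptor rows and 33.3%, 66.7%, 75%, 36.1% and 22.2% for the others, beside the shares of all rows given above. At the matched number they were 10.0%, 10.0%, 10.0%, 20.0% and 40.0% against 8.33%, 8.33%, 13.9%, 22.2% and 22.2%, with 17.3% of all rows. In both groups of genes the matched shares lay below that of all rows in each DA library and above it in each 5-HT library. None of the autoreceptor rows and 3 of the other rows were DA-only, a difference of -8.33 percentage points. Its Wilson-based 95% interval of -21.8 to 20.0 covers counting error only. Rows are not independent replicates, so this interval is no test of autoreceptor against other genes. Leaving out DA replicate 1 gave a difference of 3.33, and leaving out 5-HT replicate 2 gave 1.43. Rows open in all 5 libraries made up 30.0% of autoreceptor rows (3 of 10) and 13.9% of the others (5 of 36), against 12.8% of all rows. Of all rows, 13.4% were DA-only.

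Htr1a, the somatodendritic autoreceptor (chromosome 13, 106233773 to 106238213, plus strand), had 2 rows. The promoter row (106232631 to 106233115) ended upstream of the TSS and scored 4.57, 6.26 and 5.24 in DA neurons, 0 in 5-HT replicate 1 and 3.03 in 5-HT replicate 2. The row within the gene (106234039 to 106235486), 79.6% of which is coding sequence, was open in all 5 libraries at 3.82, 4.32, 3.64, 3.56 and 3.24. No row covered the TSS itself. The upstream row was thus open in every DA library and in 1 of 2 5-HT libraries, at the 13.7th percentile there.

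Htr1b, the terminal autoreceptor (chromosome 9, 81524950 to 81526222, minus strand), had the highest-scoring row of all 46. This row (81520606 to 81520938) lies downstream of the gene, with its centre 5450 bp from the TSS, and scored 13.5, 16.8 and 16.9 in DA neurons and 8.11 and 4.73 in 5-HT neurons. Its percentiles were 97.1, 98.2 and 99.0 in the DA libraries and 92.9 and 76.6 in the 5-HT libraries. Counted from the highest peak of each library, it ranked 1529, 1632 and 968 in DA and 2747 and 5360 in 5-HT neurons, with every DA rank higher than every 5-HT rank. The same held for 11.4% of all rows open in all 5 libraries and 9.03% of those at no promoter, and for 1 of the 8 such receptor rows, which was singled out after its values were seen. The promoter row (81525283 to 81528183) covers the whole start of the gene together with the promoter of the lincRNA D430036J16Rik, and was open in all 5 libraries at 4.80, 5.00, 4.43, 4.49 and 3.29. RefSeq places the TSS 1217 bp further upstream, inside the same row. Its other rows, 1 on each side of the gene, were open in DA replicates 2 and 3 alone.

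Htr1d, another terminal autoreceptor (chromosome 4, 135979439 to 136000313, plus strand), was the autoreceptor gene with the fewest shared rows. A row at the second of its TSSs scored 3.90 in DA replicate 2 and 0 elsewhere, and a pair of further rows had scores in DA replicate 2 alone (3.84 and 5.96). The remaining row lies at the promoter of 6030445D17Rik, near the outer edge of the window, and scored 4.03, 4.41, 3.08, 3.37 and 0. No Htr1d row of its own was therefore open in more than 1 library.

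Htr1f, an inhibitory receptor of the same class (chromosome 16, 64924555 to 65105610, minus strand), had the most rows, 9. Its promoter row (65104779 to 65106308) was open in all 5 libraries at 4.75, 5.65, 5.94, 4.99 and 3.72. All 9 rows were open in DA replicate 3, while the other DA libraries had 1 and 2 open and the 5-HT libraries 3 and 2. Without DA replicate 3, 4 of these rows had no peak left. In the 1 Mb on either side, the same library had 87 of 111 rows open, against 69 in DA replicate 2, and 37 rows were open only there, against 18.

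The balance between DA replicates 2 and 3 varied around the other members. In the 1 Mb on either side of Htr1d, 135 of 141 rows were open in DA replicate 2 and 67 in DA replicate 3, and around Htr3a 82 and 41 of 94. Around Htr1b the counts were 27 and 53 of 65, and around Htr1a 47 and 72 of 96. Around Htr2b they were 94 and 117 of 138, around Htr2c 7 and 10 of 12 and around Htr7 78 and 97 of 126. Around Htr2a (63 and 64 of 83) and Htr4 (98 and 99 of 125) the libraries had nearly the same number. The windows of Htr1d and Htr3a had the highest GC content of the members, 48.2% and 47.5%, and the other windows lay between 36.4% and 41.8%. Rows open in DA replicate 2 alone had a median GC content of 49.1% over the genome and those in DA replicate 3 alone 47.3%. The part of these library differences in the rows open in 1 library was not tested.

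Htr2a, a Gq-coupled excitatory receptor (chromosome 14, 75040647 to 75106666, plus strand), had the second-highest row. It lies in an intron (75043090 to 75043473), with its centre 2634 bp from the TSS, and scored 8.80, 9.73 and 10.4 in DA and 5.66 and 4.65 in 5-HT neurons. Its percentiles were 85.9, 89.4 and 94.2 against 73.3 and 75.3. By rank from the highest peak the groups overlapped, at 7460, 9876 and 5498 in DA and 10336 and 5650 in 5-HT neurons. The promoter row (75040360 to 75041979) was lower, at 3.99, 5.53, 5.22, 4.77 and 3.12. A further 3 rows were open in DA replicate 2 alone.

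Htr2c, coupled like Htr2a (chromosome X, 143397056 to 143631820, plus strand), had 5 rows. The promoter row was open in all 3 DA libraries at 4.81, 4.80 and 5.34 and in 5-HT replicate 1 at 4.76. Its DA-only row (143628287 to 143629147) scored 4.26, 5.94 and 6.27 and had no peak in either 5-HT library. The row is 861 bp long and contains the whole 824 bp of the last coding exon, starting 25 bp before it and ending 12 bp after it, so that 95.7% of the row is coding. Of all DA-only rows of the series, 1.03% were coding over at least 50% of their length. No row overlapped the other 5 coding blocks of the gene. The match of a peak row to an exon was noticed after the values were seen. The reads were not analysed here, so whether they came from genomic DNA at this locus or from copied exon sequence such as cDNA or a plasmid was not tested, and this limits what the DA-only row of Htr2c shows. DA replicate 3 had 3.21% of its peaks on chromosome X, against 2.40% and 2.26% in the other DA libraries and 2.29% and 2.72% in the 5-HT libraries. An intronic row of Htr2c was open in 5-HT replicate 2 alone (2.98).

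Htr2b, the third Gq-coupled member (chromosome 1, 87995601 to 88008545, minus strand), had no row in its window in any library. The same holds for 10.0% of protein-coding genes. The closest row outside lay 13832 bp beyond the window edge and was open in all 5 libraries.

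**Figure D2:**
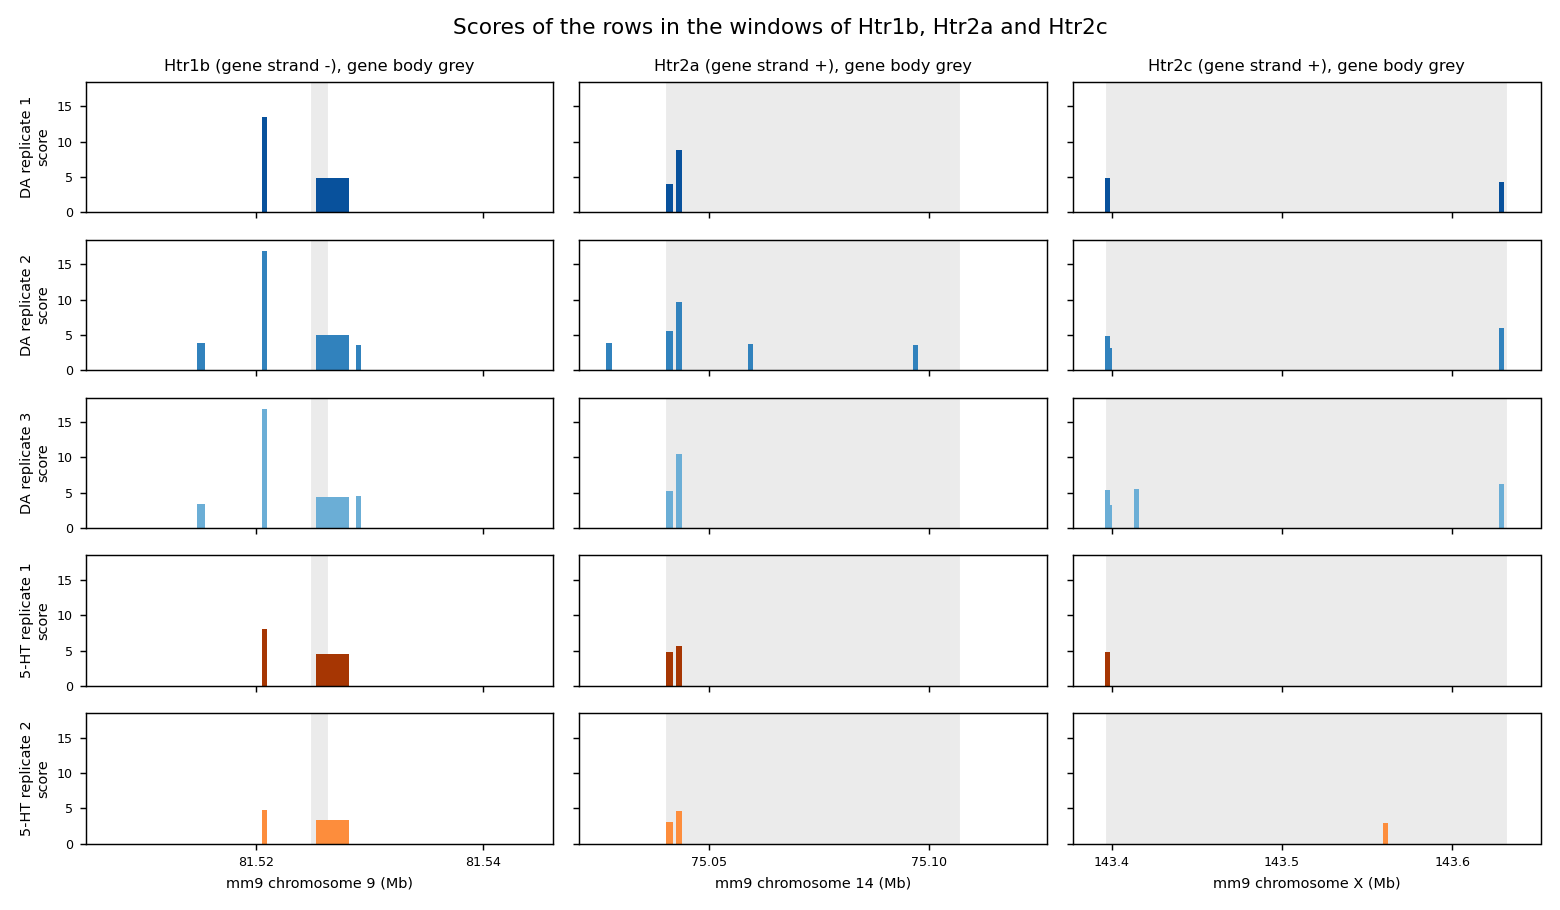
Scores (vertical axis) of the rows in the windows of Htr1b, Htr2a and Htr2c along mm9 coordinates (horizontal axis, Mb), with 1 line of panels per library, gene bodies in grey and narrow rows widened to be visible. The row downstream of Htr1b and the intronic row of Htr2a stand highest in every library, and the row over the last coding exon of Htr2c appears in the 3 DA libraries alone, with the source of its reads not tested.

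Htr4 and Htr7 are Gs-coupled receptors that raise cAMP. The Htr7 promoter row (chromosome 19, 36131084 to 36132979) scored 5.95, 8.34 and 7.50 in DA and 5.39 and 3.71 in 5-HT neurons. The Htr4 promoter row (chromosome 18, 62483111 to 62484531) scored 5.68, 8.49 and 8.94 against 4.78 and 2.86. These were the only receptor promoters among the top 22879 peaks of all 5 libraries. Htr4 reached the 90.8th percentile in DA replicate 3 and the 2.14th in 5-HT replicate 2, where its score was close to the lowest of the library (2.83).

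Further into the genes, an intronic row of Htr4 was DA-only at 4.04, 3.30 and 3.80. Another was open in the DA libraries at 3.96, 5.97 and 6.18 and in 5-HT replicate 1 at 4.11. Htr7 had 6 distal rows, of which 1 was open in all 3 DA libraries and 5-HT replicate 1 and another was open in 5-HT replicate 1 alone. None of its distal rows was open in all 5 libraries.

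Htr3a, which encodes a subunit of the serotonin-gated cation channel (chromosome 9, 48707319 to 48719204, minus strand), had 6 rows, the highest density of the members at 11.6 rows per 100 kb. Its promoter row was open in DA replicates 2 and 3 (5.71 and 3.95) and 5-HT replicate 1 (5.31) and had no peak in the other 2 libraries. Past the 3′ end a row (48704014 to 48704809) was DA-only at 4.14, 4.29 and 3.20. Its neighbour was open in the DA libraries at 4.73, 4.48 and 4.06 and in 5-HT replicate 1 at 4.96. Neither row was among the top 22879 peaks of any DA library. Over all 10 members the median density was 4.61 rows per 100 kb, against 5.91 for protein-coding genes, and 3 of 10 windows held a DA-only row, against 36.7% of protein-coding genes.

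Rows near the window edge show where the rule divides. The row taken in nearest to an edge was that at 6030445D17Rik in the Htr1d window, 1307 bp inside, and the closest row left out lay 4415 bp outside the Htr7 window, with scores of 0, 3.60, 4.45, 0 and 0. Outside the Htr2a window by 4959 bp lay a row open in all 5 libraries (5.80, 8.16, 6.30, 4.62 and 4.44). A row 11341 bp outside the Htr1a window had no peak in the 3 DA libraries and scored 4.25 and 3.30 in 5-HT neurons. A row 18455 bp outside the Htr3a window was DA-only, at 5.22, 6.38 and 4.36.

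The other serotonin receptor genes of mouse were viewed in the same way. The promoter of Htr5a was open in all 5 libraries (4.25, 6.00, 4.45, 4.49 and 3.75), that of Htr5b in all but 5-HT replicate 2, that of Htr6 in DA replicates 1 and 2, and that of Htr3b in none. The dopamine receptor genes Drd2 to Drd5 had 21 rows in their windows, with 7, 14 and 12 open in DA and 9 and 5 in 5-HT libraries. Of these, 4 were open in all 5 libraries (19.0%) and 1 was DA-only (4.76%), close to the 17.4% and 6.52% of the serotonin receptor rows. Drd2 and Drd5 had a promoter open in all 5 libraries, Drd4 in DA replicates 2 and 3 and 5-HT replicate 1, and Drd3 in none.

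Of 9 genes for serotonin handling, which are those of its synthesis, transport and breakdown together with the transcription factor Fev, 4 had a promoter open in all 5 libraries, against 48.4% of protein-coding genes: Tph2, Ddc, Gch1 and Maoa. Tph2, the serotonin-synthesising hydroxylase of neurons, scored 9.91, 7.59 and 11.1 in DA and 7.09 and 3.59 in 5-HT neurons. Slc6a4 and Maob had a promoter open in all 3 DA libraries and no 5-HT library, Slc18a2 in all 3 DA libraries and 5-HT replicate 2, Fev in 5-HT replicate 1, and Tph1 in none. No promoter of the list was 5-HT-only. Among all promoter rows 5.51% were DA-only, and the share of protein-coding genes with a DA-only or 5-HT-only promoter was not counted. Of 28 genes that transmit or shape receptor signals, 23 had a promoter open in all 5 libraries, also against 48.4% of protein-coding genes, among them Gnai2, Gnao1, Gnas, Gnaq, Kcnj6 and Arrb2. A DA-only or 5-HT-only promoter was found at 0 of them, again with no share of protein-coding genes counted. Kcnj6, a subunit of the potassium channel that inhibitory receptors open, scored 6.94, 8.89 and 9.83 against 4.82 and 3.40.

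Short words were searched, in either orientation, within the middle 200 bp of the 36 receptor rows that are at least this long and of 98689 such rows in the series. CGGAAG, a core of ETS sites such as those of Fev, was in 4 receptor rows (11.1%, against 5.90% of all), at Htr1a, Htr1b, Htr1d and Htr1f. AGATAA, of GATA factors, was in 4 (11.1%, against 9.05%), TAATTA, of homeodomain factors, in 2 rows of Htr7 (5.56%, against 6.62%), AAGGTCA, of Nr4a2, in 1 at Htr1b (2.78%, against 4.00%) and CAGCACC, part of the REST site, in 2 (5.56%, against 4.89%). These are counts of letters in few rows and show no bound factor.

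The promoter stretches below are the 200 bases upstream of the TSS, read on the gene's strand from the mm9 reference, for the 3 members whose promoter was open in all 5 libraries at the highest lowest percentile. They are chr19:36131998-36132197, chr16:65105611-65105810 and chr9:81527440-81527639, all on the minus strand, and the last starts from the RefSeq TSS. Capitals mark the words listed above on either strand. The Htr7 stretch, at 85.5% GC, holds none of them, that of Htr1f holds AGATAA and CAGCACC (on the opposite strand), and that of Htr1b holds CGGAAG.
Htr7 promoter: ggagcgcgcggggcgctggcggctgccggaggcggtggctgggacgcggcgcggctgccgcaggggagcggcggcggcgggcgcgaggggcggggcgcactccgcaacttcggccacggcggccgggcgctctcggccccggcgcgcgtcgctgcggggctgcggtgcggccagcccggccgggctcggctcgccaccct
Htr1f promoter: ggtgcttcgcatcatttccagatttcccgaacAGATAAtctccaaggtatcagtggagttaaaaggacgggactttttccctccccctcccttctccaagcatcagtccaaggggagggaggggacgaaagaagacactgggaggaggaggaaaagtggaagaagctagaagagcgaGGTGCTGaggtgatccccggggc
Htr1b promoter: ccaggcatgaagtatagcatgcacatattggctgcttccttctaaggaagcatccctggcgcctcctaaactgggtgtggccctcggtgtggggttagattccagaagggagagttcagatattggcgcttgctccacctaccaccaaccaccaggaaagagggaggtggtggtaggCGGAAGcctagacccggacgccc

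The distal rows are shown by their central 300 bases. The row downstream of Htr1b (chr9:81520622-81520921, minus strand) and the intronic row of Htr2a (chr14:75043131-75043430, plus strand) were chosen after their values were seen, as the highest distal rows open in all 5 libraries. The row downstream of Htr3a (chr9:48704261-48704560, minus strand) is a DA-only row outside coding exons. None of the words occurs in these stretches. Their GC content was 44.0%, 55.7% and 58.7%.
Htr1b downstream: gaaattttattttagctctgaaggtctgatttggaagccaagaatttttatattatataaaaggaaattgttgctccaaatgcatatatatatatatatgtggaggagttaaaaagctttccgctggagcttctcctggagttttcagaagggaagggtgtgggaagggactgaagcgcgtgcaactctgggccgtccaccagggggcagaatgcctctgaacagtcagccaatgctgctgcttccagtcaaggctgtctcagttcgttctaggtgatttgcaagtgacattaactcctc
Htr2a intron: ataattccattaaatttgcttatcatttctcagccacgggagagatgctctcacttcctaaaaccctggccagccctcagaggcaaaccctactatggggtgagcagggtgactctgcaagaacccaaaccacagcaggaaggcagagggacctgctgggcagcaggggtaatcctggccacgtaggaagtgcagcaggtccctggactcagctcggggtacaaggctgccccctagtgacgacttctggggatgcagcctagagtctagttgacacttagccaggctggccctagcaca
Htr3a downstream: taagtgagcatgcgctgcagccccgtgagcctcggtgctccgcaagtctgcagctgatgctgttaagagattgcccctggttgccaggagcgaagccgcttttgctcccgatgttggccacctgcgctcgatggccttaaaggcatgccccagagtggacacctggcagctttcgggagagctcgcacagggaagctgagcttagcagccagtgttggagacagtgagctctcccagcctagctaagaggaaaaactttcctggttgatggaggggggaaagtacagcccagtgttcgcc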

How the data were processed

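ATAC-seq broad peak rows of 3 DA and 2 5-HT libraries were used; the RNA-seq samples were not used here. Per the labels and methods, the authors trimmed reads (Trimmomatic), aligned them to mm9 (Bowtie2), removed duplicates (Picard), called peaks (MACS2) and merged near peaks; tool versions are not given in the sources used here. The deposited score of each row has no named scale. For counts, scores were used as ranks within libraries or as above 0 or not. Printed scores are the deposited values, which are on no known common scale between libraries. Rows overlapping a window by at least 1 bp were taken, and 1 misspelled chromosome name was corrected. Genes and TSSs came from the GENCODE annotation of the same build; RefSeq promoters of GRCm38.p6 were matched to it by sequence. Counts per library were compared by two-sided exact permutation over libraries with Benjamini-Hochberg adjustment. Intervals are Wilson-based at 95% and cover counting error only, since rows are not independent replicates. Members and lists were chosen with earlier results of these data known. Named genes were all members, genes whose promoter row lies in a window, the other serotonin receptors, Drd2 to Drd5, and, from the pathway lists, those with a promoter open in 1 cell type only and up to 6 open in all libraries; others named were chosen after their values were seen. Alternatives changed the peak number, window, overlap, promoter, TSS set, merging, score threshold, scale, pairing and libraries. Scripts were tested on simulated data and ran in Python 3.11.15 with pysam 0.24.0, SciPy 1.17.1, matplotlib 3.10.9, pandas 2.3.3 and NumPy 2.4.6.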

Additional observations from a re-analysis of the deposited data

How the results depend on the processing

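Each of the 5 tested differences turned from higher in DA to higher in 5-HT neurons under 2 alternatives, and kept its direction under the other 15. With the same number of peaks per library the differences were -6.33 rows in all windows, -4.5 at promoters, -1.83 at distal rows, -2.0 at autoreceptor genes and -4.33 at the other genes. Per 10000 peaks they were -1.32, -1.17, -0.161, -0.469 and -0.855, in the same order. Exact permutation p-values over the alternatives ran from 0.1 to 1.0, and none could pass 0.05 in this design. The peak number enters both alternatives by construction; why the libraries differ in it was not tested.

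With the same number of peaks, the DA-only rows numbered 0, the 5-HT-only rows 3, the rows open in all 5 libraries 4 and the genes with a promoter open in all 3 DA libraries 2. The 3 5-HT-only rows had peaks in every DA library that this limit left out. Limited to the upper 50% of each library's scores, the DA-only rows numbered 0, the rows open in all 5 libraries 3, and the genes with an open promoter 2 in DA and 2 in 5-HT neurons. The shares of all rows and of all protein-coding genes at this limit were not counted, so these counts cannot be set against them. Windows of 50 kb held 67 rows, of which 6 were DA-only (8.96%, against 13.4% of all rows), 1 was 5-HT-only (1.49%, against 0.389%) and 15 were open in all 5 libraries (22.4%, against 12.8%). Leaving out 1 library gave 3 to 8 DA-only rows, 0 to 1 5-HT-only rows and 8 to 13 rows open in all remaining libraries. Shares of all rows were not counted again for these omissions, and the cause was not tested. The autoreceptor difference in DA-only share lay between -10.9 and 3.33 percentage points.

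With the replicate block, over numbers 1 and 2, the differences were 11.0 rows in all windows, 1.5 at promoters, 9.0 at distal rows, 3.5 at autoreceptor genes and 7.5 at the other genes. The smallest exact p with 2 pairs is 0.5. The libraries were separate sorts, with no shared batch named. Deviations of same-numbered libraries correlated at 0.126 and 0.0217, and those of DA replicate 3 and 5-HT replicate 2 at 0.0741; with 2 5-HT libraries, whose deviations mirror each other, these values cannot show pairing. Depth is unknown, so a score of 0 does not show closed chromatin.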
